A study of Mus musculus with 24 samples.

Results

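The genes described here were those with more RNA under doxycycline (Dox) in every one of 3 tet-off lines of mouse L-EPSCs, expanded potential stem cells grown in a cocktail of kinase inhibitors. For each gene listed in the table of the tet-off lines, d was the mean log2(normalized count + 1) of the Dox-treated libraries minus that of the untreated libraries of the same line. The genes were chosen by their mean under Dox, 50 normalized counts or more in each line, and by d. Those with d of at least 0.6 in the Nanog line were ranked by the smallest d of the 3 lines, genes of chromosomes X and Y as well as H19 and Igf2 were left out, and the 100 highest were taken. These 100 came from 25476 genes listed. Of those, 10082 met the limit on the level, 9735 of them also met the limit on chromosomes, 671 then had the required d in the Nanog line, and 464 had d above 0 in all 3 lines. All 100 code for proteins.

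Poly(A) RNA of mouse embryonic stem cells and EPSCs had been sequenced in 24 libraries, 2 for each of 12 groups. In the Oct4, Sox2 and Nanog lines, labelled as tet-off knock-ins of ZHBTc4, 2TS22C and NgcKO cells, the endogenous gene is null and a transgene that Dox shuts off is the sole source of the factor. Each line gave ESCs and, as L-EPSCs, an untreated and a Dox-treated group. Wild-type J1 cells, which carry no such transgene, gave ESCs, L-EPSCs and D-EPSCs (extended pluripotent stem cells), none with Dox. L-EPSC medium holds LIF, CHIR99021, PD0325901, A-419259, XAV939, JNK inhibitor VIII and SB203580. D-EPSC medium holds LIF, CHIR99021, dimethindene maleate and minocycline hydrochloride, and J1 ESCs had serum, LIF, CHIR99021 and PD0325901. Cultures were on mouse embryonic fibroblast feeders or gelatin, and by the study's methods both kinds of EPSC had been kept off feeders for several passages before RNA was taken. Each line is 1 genotype, and whether its 2 replicates are separate cultures is not stated, so the p-values measure only the spread between these libraries, which may be technical.

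Doxycycline and minocycline are tetracyclines. Besides binding the bacterial repressor that a tet-off switch is built from, tetracyclines bind bacterial ribosomes and can slow the related ribosomes inside mitochondria, and cells with stalled mitochondrial translation are known to raise targets of the transcription factor ATF4. Oct4, Sox2 and Nanog hold mouse pluripotent cells in an undifferentiated state, and cells that lose Oct4 are known for turning to trophoblast, the lineage of the placenta, whose cells carry simple epithelial keratins. In these lines Dox is given exactly where the transgene is shut off, and no Dox-treated library of cells without a tet-off transgene was analysed here. An effect of the drug itself and an effect of losing a factor therefore cannot be told apart from these libraries, and the values that bear on each are set side by side below.

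Each library held 10807631 to 15069899 reads on genes, and the normalized counts are those reads divided by the size factor of the library. The targeted genes went with the labels. Pou5f1, which encodes Oct4, had 6420.1 and 6316 normalized counts without Dox and 162 and 184 with Dox in the Oct4 line, a log2 fold change of -5.19 (SE 0.05). Sox2 had 4966 and 4701 against 47.0 and 53.1 in the Sox2 line (-6.57, SE 0.06), and Nanog had 9119 and 8847 against 3166 and 3112 in the Nanog line (-1.52, SE 0.04). The Nanog line thus kept more of its targeted transcript. This holds for RNA only, as the study reports that Nanog protein was lost with Dox in this line. Pou5f1 and Sox2 of the Nanog line differed by -0.44 (SE 0.05) and -0.31 (SE 0.06), below the limit of 0.6 for a call. The summed level of 10 markers of pluripotent cells was 51349 to 52169 without and 6903 to 7155 with Dox in the Oct4 line, 57645 to 58128 against 12263 to 12685 in the Sox2 line, and 61155 to 62455 against 37966 to 39475 in the Nanog line. Pou5f1, Sox2 and Nanog are among these 10, so the sums include the targeted transcripts. The 11 trophoblast markers summed to 4452 to 4588 without and 28257 to 28768 with Dox in the Oct4 line, 1961 to 2009 against 11994 to 12006 in the Sox2 line, and 607 to 690.2 against 997 to 999 in the Nanog line. Krt8, one of the 100 genes, is among those 11 markers, so the rule fixed part of the rise of these sums. In the Nanog line Krt8 alone had 187 and 165 normalized counts without and 394 and 422 with Dox. The 10 markers of primitive endoderm summed to 9773 to 10214 without and 5039.5 to 5134 with Dox in the Oct4 line, 7979 to 8107 against 6376 to 6401 in the Sox2 line, and 5385 to 5475 against 5089 to 5384 in the Nanog line. In bulk RNA, fewer cells of a type and less RNA per cell cannot be told apart.

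The rule fixed the direction of the values of the 100 genes in the tet-off lines, so they are given as descriptions and were not tested. In each line both Dox libraries lay above both untreated libraries for all 100 genes, where 47.5%, 44.7% and 36.5% of the 9735 genes meeting the level and chromosome limits did so in the Oct4, Sox2 and Nanog line. The median fold, 2 to the power d on the log2(normalized count + 1) scale, was 3.18 in the Oct4 line, 2.78 in the Sox2 line and 2.16 in the Nanog line. Values of d ran from 0.83 to 4.34, from 0.83 to 4.07 and from 0.85 to 2.75 in the same order. The Nanog line had the smallest d for 68 genes, the Sox2 line for 22 and the Oct4 line for 10. The largest d was in the Oct4 line for 50 genes, in the Sox2 line for 38 and in the Nanog line for 12. For 49 genes d was at least 1 in every line. The spread between the highest and lowest d of a gene was at most 0.3 for 15 genes and above 1 for 45. At the end of the ranking, the last genes taken were H1f2, Ripk1 and Lpl with a smallest d of 0.84, 0.83 and 0.83, and the first left out were Ube2e2, Nabp1 and Tubd1 with 0.83, 0.82 and 0.82. The untreated libraries held as few as 5 reads of a gene and the Dox libraries no fewer than 38.

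**Figure D1:**
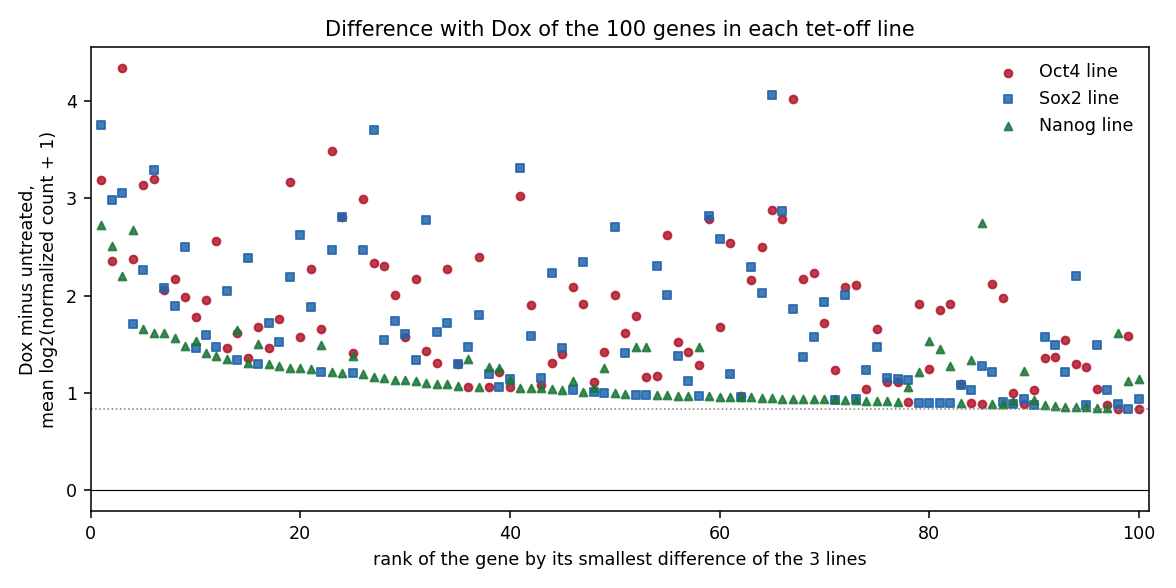
Difference d between Dox-treated and untreated L-EPSCs (y axis, mean log2(normalized count + 1), 2 libraries a group) for the 100 genes in order of rank (x axis), with red circles for the Oct4 line, blue squares for the Sox2 line and green triangles for the Nanog line; the dotted line is the smallest d of the gene of rank 100. Green triangles form the lower edge for 68 genes, while the red and blue points reach above 4.

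The genes were spread over the genome, with 10 on chromosome 8, 9 on chromosome 3, 8 each on chromosomes 2, 6, 9 and 11, and 1 in the mitochondrial genome. Positions are those of NCBIM37 (mm9) and were found for 99 genes, all but Ulbp1. Peg10 (chr6:4697306-4710514) and Sgce (chr6:4624350-4697204) are neighbours on opposite strands with 101 bases between them.

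Promoter windows, 250 bases before to 50 after the start of the gene in RefSeq (GRCm38.p6), were given for 71 of the 100 genes. Their letters are given as a description, since the rule chose the genes for rising with Dox in every line. The GC box GGGCGG, read on both strands, was in 70.4% of the 71 windows, in 35.9% of all 27025 windows and in 70.0% of the 7716 windows of genes meeting the level and chromosome limits. The cyclic AMP response element TGACGTCA, which reads the same on both strands, was in 5 of the 71 windows (7.04%), against 1.88% of all windows and 3.71% of those of the same level. With 5 windows this is a description of letters and no sign of a factor. The TATA box TATAAA was in 11.3%, 14.2% and 5.94% of the same 3 sets, the ETS motif CCGGAAG in 14.1%, 9.12% and 21.3%, the AP-1 motif TGACTCA in 1.41%, 5.17% and 2.92%, and the C/EBP-ATF element TGATGNAA in 4.23%, 4.06% and 1.97%. The antioxidant element TGACNNNGC was in 11.3%, 12.5% and 15.2%, and the TEAD motif GGAATG in 12.7%, 14.6% and 10.9%. The E-box TCACGTGA of lysosomal genes and the NRF1 motif were in none of the 71 windows. They were in 1.01% and 0.977% of all windows, and in 2.27% and 2.42% of those of the same level. Motifs were counted whether or not they overlapped another. The 250 bases before the start of Emp2, the gene second in rank, hold 2 GC boxes, in capitals, 1 on each strand.
Emp2 (chr16:10313969-10314218, minus strand): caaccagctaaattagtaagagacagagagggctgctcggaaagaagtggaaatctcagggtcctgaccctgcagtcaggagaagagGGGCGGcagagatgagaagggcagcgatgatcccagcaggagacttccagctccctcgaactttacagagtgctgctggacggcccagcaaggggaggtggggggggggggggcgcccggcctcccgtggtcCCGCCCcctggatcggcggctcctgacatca
The 5 windows with the cyclic AMP response element are shown with up to 30 bases on either side and the element in capitals. It begins 65, 93, 33, 22 and 92 bases before the start of Pogk, Tesk1, Txnl4b, Zfp426 and Csf2ra.
Pogk (chr1:166409856-166409923, minus strand): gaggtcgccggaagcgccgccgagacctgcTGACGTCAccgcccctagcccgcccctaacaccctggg
Tesk1 (chr4:43442154-43442221, plus strand): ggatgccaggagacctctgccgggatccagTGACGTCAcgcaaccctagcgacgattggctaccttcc
Txnl4b (chr8:109565829-109565891, plus strand): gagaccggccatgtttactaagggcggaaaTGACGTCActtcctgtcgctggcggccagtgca
Zfp426 (chr9:20492747-20492798, minus strand): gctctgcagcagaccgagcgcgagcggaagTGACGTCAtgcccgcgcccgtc
Csf2ra (chr19:61228473-61228540, minus strand): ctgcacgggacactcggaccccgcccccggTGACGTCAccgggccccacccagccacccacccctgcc
These 5 genes are a transposon-derived protein, a protein kinase, a splicing factor, a zinc finger protein and a cytokine receptor subunit.

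Peg10, a retrotransposon-derived gene that is imprinted and needed for the placenta, ranked first. It had 16075 and 15708 normalized counts without and 145533 and 143558 with Dox in the Oct4 line, 9174 and 8929 against 122218 and 122905 in the Sox2 line, and 803 and 769.8 against 5200.0 and 5232 in the Nanog line. Dox libraries were 9.10-, 13.5- and 6.63-fold higher, with no overlap, and the level of the Nanog line under Dox stayed below that of either other line without Dox. In the ESCs of the same lines Peg10 had 9106 and 9075 in the Oct4 line, 33501 and 33246 in the Sox2 line and 2827 and 2713 in the Nanog line, above untreated L-EPSCs in the Sox2 and Nanog lines and below them in the Oct4 line. Sgce, the imprinted neighbour of Peg10 that encodes a sarcoglycan, had 296 and 294 normalized counts without and 706 and 759 with Dox in the Oct4 line, 118 and 177 against 415 and 483 in the Sox2 line, and 68.2 and 57.1 against 125 and 145 in the Nanog line. Its folds were 2.48-, 3.09- and 2.14-fold. Rtl6, also derived from a retrotransposon, had 41.7 and 46.7 normalized counts without and 101.3 and 107 with Dox in the Oct4 line, 58.3 and 45.9 against 95.7 and 123 in the Sox2 line, and 56.5 and 65.3 against 148 and 145 in the Nanog line. Its folds were 2.32-, 2.08- and 2.39-fold. Its ESC levels of 133 and 163 in the Oct4 line, 102 and 72.8 in the Sox2 line and 134 and 133 in the Nanog line were above untreated L-EPSCs in each line.

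The 10 epithelial, keratin and junction genes (Emp2, Esrp2, Fam83b, Dsc2, Prss8, Krt8, Magi3, Krt19, Marveld3 and Cxadr) had the highest median d of the groups by role in the Oct4 and Sox2 lines, with a median fold of 6.96 in the Oct4 line, 5.16 in the Sox2 line and 2.32 in the Nanog line. The roles were assigned after the values were seen and serve only to order the text. Emp2 (chr16:10281842-10314061), a tetraspan membrane protein of epithelia, had 155 and 188 normalized counts without and 891 and 871 with Dox in the Oct4 line, 109 and 94.8 against 784 and 843 in the Sox2 line, and 56.5 and 33.6 against 268 and 241 in the Nanog line. Its folds of 5.14-, 7.92- and 5.71-fold were large in all 3 lines. Esrp2, a splicing regulator of epithelial cells, had 92.3 and 98.8 normalized counts without and 891 and 811 with Dox in the Oct4 line, 90.7 and 99.8 against 464 and 455 in the Sox2 line, and 29.8 and 23.4 against 86.1 and 85.4 in the Nanog line. In the Nanog line its Dox level was under the ESC level of 178 and 150.2, whereas in the other two lines it was above their ESCs.

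Krt8, a keratin of simple epithelia, had 1798 and 1689 normalized counts without and 12336 and 12025 with Dox in the Oct4 line, 737 and 787 against 5346 and 5337 in the Sox2 line, and 187 and 165 against 394 and 422 in the Nanog line. Krt19, another such keratin, had 1857 and 1746 normalized counts without and 14832 and 14558 with Dox in the Oct4 line, 588 and 582 against 5849.6 and 5752 in the Sox2 line, and 148 and 155 against 325 and 307 in the Nanog line. Under Dox both were far higher in the Oct4 and Sox2 lines than in the Nanog line, and their folds were 6.99-, 7.01- and 2.31-fold for Krt8 and 8.16-, 9.91- and 2.08-fold for Krt19. Prss8, the membrane-bound serine protease prostasin, had 140.2 and 114 normalized counts without and 1391 and 1466 with Dox in the Oct4 line, 152 and 161 against 875 and 861 in the Sox2 line, and 54.3 and 35.7 against 109.8 and 97.8 in the Nanog line. Krt19 and Prss8 were among the 5 genes whose d differed most between lines. In the Nanog line the Dox libraries of Prss8 overlapped the ESC level of 109 and 135. The desmosomal cadherin Dsc2 (4.84-, 3.69- and 2.36-fold), the tight junction proteins Marveld3 (6.93-, 7.05- and 1.96-fold) and Cxadr (4.697-, 2.98- and 1.92-fold), and Fam83b (9.003-, 4.58- and 2.38-fold) also had their smallest fold in the Nanog line.

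**Figure D2:**
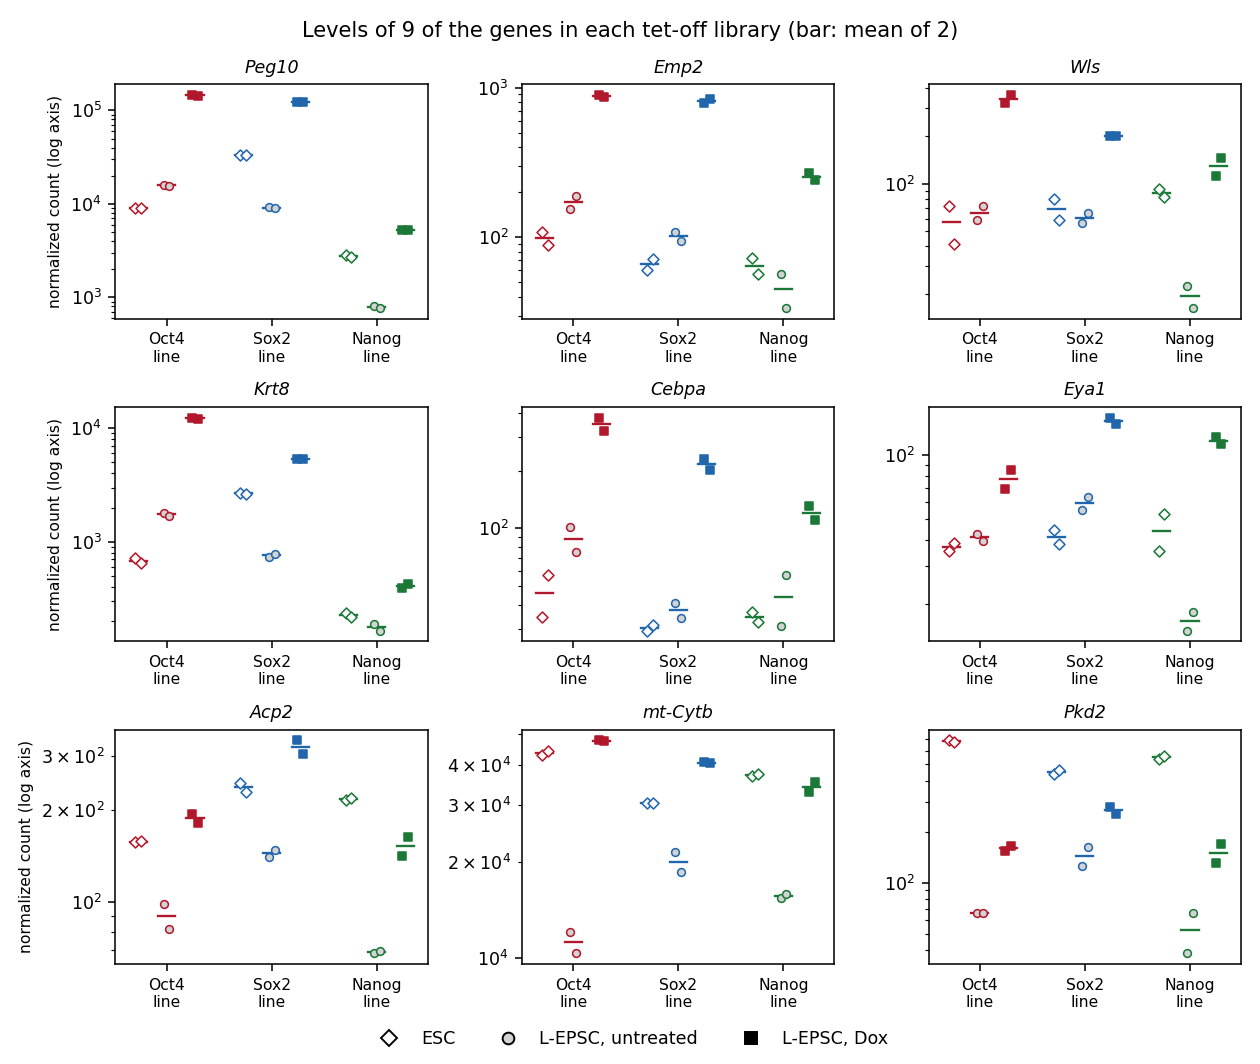
Normalized counts (y axis, log scale) of 9 of the genes in each library of the Oct4, Sox2 and Nanog line (x axis), with open diamonds for ESCs, grey circles for untreated L-EPSCs, filled squares for Dox-treated L-EPSCs and a bar at the mean of 2. The squares lie above the circles in every panel, as the rule requires; for Pkd2 they lie below the diamonds in all 3 lines, and for Krt8 the squares of the Nanog line lie below the circles of the other lines.

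Among the 17 genes of transcription and chromatin, Cebpa (chr7:35904312-35906945) and Cebpb encode C/EBP factors of liver, fat and myeloid cells. Cebpa had 101.2 and 75.5 normalized counts without and 377 and 322 with Dox in the Oct4 line, 41.1 and 33.9 against 230.2 and 202 in the Sox2 line, and 30.9 and 57.1 against 130.00 and 110.2 in the Nanog line. Cebpb had 107 and 105 normalized counts without and 939 and 776 with Dox in the Oct4 line, 115 and 109 against 604 and 638 in the Sox2 line, and 72.4 and 84.6 against 195 and 166 in the Nanog line. Both were above ESCs in every line under Dox, where Cebpa had 34.5 and 57.0 in the Oct4 line, 29.3 and 31.2 in the Sox2 line and 36.6 and 32.5 in the Nanog line in ESCs. Vdr, the vitamin D receptor, had 32.8 and 26.1 normalized counts without and 88.7 and 76.6 with Dox in the Oct4 line, 14.0 and 18.96 against 72.6 and 68.7 in the Sox2 line, and 18.1 and 24.5 against 69.4 and 43.8 in the Nanog line, at low counts throughout, with folds of 2.76-, 4.13- and 2.55-fold. Gata2, a factor of blood and trophoblast, had 323 and 300.03 normalized counts without and 5039 and 5136 with Dox in the Oct4 line, 610.4 and 572 against 2171 and 2119 in the Sox2 line, and 82.0 and 79.5 against 169 and 144 in the Nanog line. Its fold of 16.3 in the Oct4 line stood against 3.63 in the Sox2 and 1.92 in the Nanog line. Eya1, a transcriptional cofactor and phosphatase of organ development, went the other way and had 42.6 and 39.5 normalized counts without and 69.1 and 85.5 with Dox in the Oct4 line, 55.1 and 63.8 against 150.1 and 139.8 in the Sox2 line, and 14.9 and 18.4 against 122 and 112 in the Nanog line. For Eya1 the fold was largest in the Nanog line (1.85-, 2.42- and 6.73-fold). Zbtb10, a zinc finger protein, had 1098 and 1069.9 normalized counts without and 4499 and 4751 with Dox in the Oct4 line, 892 and 916 against 3607 and 3643 in the Sox2 line, and 432 and 438 against 809.9 and 852 in the Nanog line, with folds of 4.26-, 4.01- and 1.91-fold.

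Further genes of this group stood close to or under the ESCs. Zfp936, a zinc finger protein, had 43.5 and 54.8 normalized counts without and 93.3 and 131 with Dox in the Oct4 line, 69.1 and 71.8 against 153 and 128 in the Sox2 line, and 24.5 and 24.5 against 68.5 and 70.8 in the Nanog line, while ESCs had 567 and 561 in the Oct4 line, 211 and 223 in the Sox2 line and 296 and 290.4 in the Nanog line. It was 1 of 3 genes, with Pkd2 and Ripk1, whose Dox libraries lay below both ESC libraries in all 3 lines. Lrif1, which binds the inactive X chromosome and heterochromatin, had 53.2 and 53.9 normalized counts without and 192 and 201 with Dox in the Oct4 line, 70.2 and 68.8 against 138 and 123 in the Sox2 line, and 18.1 and 51.0 against 72.0 and 101.2 in the Nanog line, and ESCs had 194 and 198 in the Oct4 line, 205 and 182 in the Sox2 line and 222 and 232 in the Nanog line. In the Oct4 line its Dox values lay among those of the ESCs, and in the other lines they lay under them. The remaining genes were Aff3 (4.49-, 4.91- and 1.95-fold), Zfp697 (3.06-, 2.54- and 3.14-fold), the linker histone H1f2 (1.79-, 1.85- and 3.06-fold) and Zfp319, Zfp46, Pogk, Kctd15, Zfp40 and Zfp426; over the 17, folds ran from 1.79 to 16.3 in the Oct4 line, 1.83 to 5.65 in the Sox2 line and 1.88 to 6.73 in the Nanog line.

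The 17 signalling genes had median folds of 2.76, 2.78 and 2.08. Wls (chr3:159502701-159598797), which carries Wnt proteins to the cell surface, had 58.6 and 71.9 normalized counts without and 322 and 363 with Dox in the Oct4 line, 56.2 and 64.8 against 199.6 and 199 in the Sox2 line, and 22.4 and 16.3 against 112 and 145 in the Nanog line. Its untreated Nanog-line libraries were the lowest of all, and its fold was 5.21-, 3.26- and 6.40-fold. Gab2, a docking adaptor of receptor tyrosine kinases, had 138 and 163 normalized counts without and 1393 and 1369.8 with Dox in the Oct4 line, 98.3 and 93.8 against 989.9 and 908 in the Sox2 line, and 20.2 and 25.5 against 70.3 and 73.1 in the Nanog line. The Dox libraries of Gab2 in the Nanog line were below the untreated libraries of the other lines. Pik3ap1, an adaptor of PI3 kinase, had 22.2 and 21.6 normalized counts without and 86.4 and 102 with Dox in the Oct4 line, 14.0 and 29.9 against 97.3 and 83.4 in the Sox2 line, and 21.3 and 23.4 against 64.1 and 77.6 in the Nanog line, with folds of 4.15-, 4.22- and 3.06-fold. Psd4, an exchange factor for ARF6, had 221 and 192 normalized counts without and 576 and 565 with Dox in the Oct4 line, 91.8 and 92.8 against 304 and 307 in the Sox2 line, and 49.0 and 46.9 against 107 and 133 in the Nanog line. Lyn, a Src-family kinase, had 272 and 264 normalized counts without and 608 and 519 with Dox in the Oct4 line, 201 and 163 against 479 and 529.8 in the Sox2 line, and 47.9 and 26.5 against 87.0 and 97.8 in the Nanog line. The other kinases and adaptors had folds within the range of the group, from 1.78 to 9.78 in the Sox2 line.

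Some signalling genes had nearly the same d in each line. Camk2d, a calcium- and calmodulin-dependent kinase, had folds of 2.16-, 2.01- and 2.08-fold, and Map2k5, the kinase upstream of ERK5, had 1.99-, 1.85- and 1.88-fold. Map2k5 had 118 and 128 normalized counts without and 225 and 269 with Dox in the Oct4 line, 134 and 139 against 244 and 261 in the Sox2 line, and 102 and 125 against 216 and 212 in the Nanog line. These 2, with Hebp2, Acp2 and Rnf103, were the 5 genes with the smallest spread of d. Myd88, the adaptor of Toll-like receptors, had 69.2 and 79.0 normalized counts without and 288 and 299 with Dox in the Oct4 line, 104 and 99.8 against 197 and 186 in the Sox2 line, and 52.2 and 77.5 against 111 and 127 in the Nanog line. Irs2, an insulin receptor substrate, had folds of 1.83-, 2.04- and 1.797-fold, Dtx4, a ubiquitin ligase of Notch signalling, 2.67-, 2.002- and 2.39-fold, and the G protein subunit Gnao1 3.20-, 6.003- and 1.95-fold. The others were Csf2ra, Ppp2r3a, Tesk1, Rnf135, Hipk3 and Ripk1.

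Of the 13 genes for lysosomal, lipid and metabolic enzymes, Car4, a carbonic anhydrase anchored to the cell surface, had the largest fold of the 100 in the Oct4 line. It had 98.5 and 112 normalized counts without and 2196 and 2090.2 with Dox in the Oct4 line, 121 and 109 against 917 and 1008 in the Sox2 line, and 7.46 and 14.3 against 45.7 and 57.3 in the Nanog line. Its folds were 20.2-, 8.32- and 4.59-fold, and in the Sox2 line the ESCs, at 368 and 310.4, already lay above the untreated L-EPSCs. Ptgr1, a reductase of prostaglandins and leukotrienes, had 1067 and 1180.3 normalized counts without and 3700.1 and 3893 with Dox in the Oct4 line, 709 and 795 against 2186 and 2141 in the Sox2 line, and 361 and 406 against 919 and 941 in the Nanog line. Plbd1, a phospholipase B-like protein, had 150.0 and 150.0 normalized counts without and 594 and 578 with Dox in the Oct4 line, 75.6 and 83.8 against 248 and 238 in the Sox2 line, and 42.6 and 23.4 against 97.5 and 75.3 in the Nanog line. Chst1, a sulfotransferase of keratan sulfate, had 17.7 and 8.08 normalized counts without and 102 and 88.8 with Dox in the Oct4 line, 5.40 and 6.98 against 117 and 120.2 in the Sox2 line, and 32.0 and 23.4 against 54.5 and 52.8 in the Nanog line, and its d differed most between lines of all 100 genes. Its untreated counts in the Oct4 and Sox2 lines were low, and its folds were 7.39-, 16.7- and 1.92-fold. Lpl, lipoprotein lipase, was the last gene taken and had 1086 and 1157 normalized counts without and 1928 and 2067 with Dox in the Oct4 line, 1047 and 929 against 1904 and 1866 in the Sox2 line, and 334 and 295 against 657 and 734 in the Nanog line. Its ESC levels, 269.8 and 260.1 in the Oct4 line, 139 and 138 in the Sox2 line and 116 and 126 in the Nanog line, were below the untreated L-EPSCs of each line.

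Several of these enzymes act in or at lysosomes. Sgsh, a sulfatase of heparan sulfate, had 49.7 and 77.3 normalized counts without and 159 and 175 with Dox in the Oct4 line, 49.7 and 80.8 against 144 and 151 in the Sox2 line, and 14.9 and 32.6 against 66.8 and 52.8 in the Nanog line. Acp2, a lysosomal acid phosphatase, had 98.5 and 81.7 normalized counts without and 193 and 182 with Dox in the Oct4 line, 140.4 and 149 against 337 and 305 in the Sox2 line, and 68.2 and 69.3 against 141 and 163 in the Nanog line. The folds of Acp2, 2.08-, 2.21- and 2.19-fold, differed less between the lines than those of any of the 100 but Hebp2. Rragd, a Rag GTPase that signals nutrient state at the lysosome, had 819.9 and 735 normalized counts without and 1618 and 1616 with Dox in the Oct4 line, 786 and 814 against 1872 and 1792 in the Sox2 line, and 425 and 439 against 1008 and 1083 in the Nanog line, with folds of 2.08-, 2.29- and 2.41-fold. In the Sox2 line ESCs had 1526 and 1554 of it, below the Dox level but above the untreated one. The other enzymes were Cyp27a1, Nat2, Cptp, Gal3st3 and Ust.

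The 11 genes of matrix, surface and cytoskeleton had a median fold of 3.16 in the Oct4 line, 2.77 in the Sox2 line and 1.92 in the Nanog line. Tgfbi, a matrix protein induced by TGF-beta, had 372 and 373 normalized counts without and 1081 and 1134 with Dox in the Oct4 line, 135 and 106 against 761 and 723 in the Sox2 line, and 351 and 299 against 792 and 754 in the Nanog line. Tagln, the actin-binding protein transgelin of smooth muscle, had 73.7 and 62.0 normalized counts without and 170.4 and 165 with Dox in the Oct4 line, 33.5 and 42.9 against 189.7 and 167 in the Sox2 line, and 49.0 and 45.9 against 82.6 and 91.1 in the Nanog line. Lcp1, an actin-bundling protein of leukocytes, had 569 and 561 normalized counts without and 1434 and 1282 with Dox in the Oct4 line, 248 and 252 against 431 and 489 in the Sox2 line, and 28.8 and 28.5 against 65.0 and 42.7 in the Nanog line. Tgfbi and Lcp1 were lower in ESCs than in untreated L-EPSCs in each line, while Adgrl2, an adhesion receptor with folds of 2.16-, 2.21- and 1.88-fold, was higher in ESCs in each line. Shtn1, a protein of axon growth, had 234 and 182 normalized counts without and 1400.3 and 1466 with Dox in the Oct4 line, 102.6 and 93.8 against 747 and 702 in the Sox2 line, and 84.1 and 90.7 against 162 and 176 in the Nanog line. Sez6, a membrane protein of neurons, had 30.2 and 22.5 normalized counts without and 123 and 149 with Dox in the Oct4 line, 29.2 and 54.9 against 496 and 578 in the Sox2 line, and 70.3 and 60.2 against 162 and 134 in the Nanog line, and its fold of 13.1 in the Sox2 line stood against 5.04 and 2.24. Igsf10 had folds of 3.46-, 1.97- and 2.77-fold and Ulbp1, a ligand of the NKG2D receptor, 3.16-, 2.77- and 1.89-fold, and the group was completed by Pdzd2, Cmtm3 and Tspan18.

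Of the 7 transporters and channels, Atp2c2, a calcium and manganese pump of the secretory pathway, had 90.5 and 71.9 normalized counts without and 233 and 188 with Dox in the Oct4 line, 16.2 and 17.0 against 91.6 and 90.8 in the Sox2 line, and 29.8 and 25.5 against 60.6 and 79.8 in the Nanog line. Slc16a6, of the monocarboxylate transporter family, had 366 and 367 normalized counts without and 1138 and 1217 with Dox in the Oct4 line, 277 and 366 against 789 and 778 in the Sox2 line, and 65.0 and 94.8 against 236 and 214 in the Nanog line. Slc16a9, of the same family, had 91.4 and 67.4 normalized counts without and 473 and 452 with Dox in the Oct4 line, 129.6 and 90.8 against 248 and 250.2 in the Sox2 line, and 32.0 and 39.8 against 65.9 and 75.3 in the Nanog line. Slc16a6 was above ESCs under Dox in each line, whereas Slc16a9 in the Sox2 line was below the ESC level of 309 and 283. Pkd2, the cation channel polycystin-2, had 66.6 and 66.5 normalized counts without and 154 and 164 with Dox in the Oct4 line, 125 and 162 against 279.7 and 253 in the Sox2 line, and 38.3 and 66.3 against 130.00 and 169 in the Nanog line, and its ESCs had 689 and 675 in the Oct4 line, 435 and 463 in the Sox2 line and 538 and 559 in the Nanog line. The zinc transporter Slc30a4 had folds of 5.27-, 3.48- and 2.08-fold, and the others were Kcnh1 and Slc43a3.

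The 5 mitochondrial genes were mt-Cytb, Slc25a24, Timm21, Gtpbp8 and Adck2. mt-Cytb encodes cytochrome b of complex III and is the only one of the 100 in the mitochondrial genome (chrMT:14145-15288). It had 12094 and 10362 normalized counts without and 47725 and 47359 with Dox in the Oct4 line, 21404 and 18604 against 40936 and 40523 in the Sox2 line, and 15409 and 15916 against 32955 and 35418 in the Nanog line. The folds were 4.25-, 2.04- and 2.18-fold, but in ESCs mt-Cytb had 43107 and 44359 in the Oct4 line, 30489.9 and 30523 in the Sox2 line and 36958 and 37637 in the Nanog line, so that the untreated L-EPSCs were the low group and the Dox libraries of the Nanog line lay below its ESCs. Reads of mitochondrial genes can be shared with nuclear copies, and their counts are uncertain to that extent. Slc25a24, a carrier of ATP-Mg and phosphate in the inner membrane, had 150.0 and 125 normalized counts without and 557 and 545 with Dox in the Oct4 line, 54.0 and 67.8 against 398 and 404 in the Sox2 line, and 71.4 and 91.8 against 163 and 162 in the Nanog line, and Timm21, a part of the import machinery, had folds of 5.64-, 4.07- and 1.93-fold. Gtpbp8 (2.45-, 1.96- and 2.77-fold) and Adck2 (2.98-, 3.05- and 2.19-fold) were the others. The 17 genes of other or mixed roles were led by Anks6 (4.50-, 3.73- and 2.96-fold), which is linked to cystic kidney disease, Krcc1 (3.44-, 2.75- and 2.90-fold) and Smim10l1 (5.91-, 2.77- and 2.60-fold). Hebp2, a heme-binding protein, had 74.5 and 79.0 normalized counts without and 135 and 169.8 with Dox in the Oct4 line, 56.2 and 40.9 against 84.97 and 105 in the Sox2 line, and 50.1 and 49.96 against 89.6 and 108 in the Nanog line, the smallest spread of d of all 100. Rnf103, a ubiquitin ligase, had folds of 2.12-, 2.23- and 2.07-fold, Tmem102 4.93-, 2.91- and 2.22-fold and CN725425 2.36-, 1.91- and 1.91-fold. The others were Klhl18, Rnf157, Ttc8, Opn3, 2610008E11Rik, Lrrc14, Cpeb2, Txnl4b, Uvssa and Dnaja4.

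The ESCs of the same lines did not enter the rule, but both groups they are set against did, so the counts are descriptions too. The median level over the 100 genes was 95.2 in ESCs, 73.9 without and 228 with Dox in the L-EPSCs of the Oct4 line, 105.5, 72.5 and 218 in the Sox2 line, and 72.4, 48.2 and 118 in the Nanog line. Both Dox libraries lay above both ESC libraries for 90 genes in the Oct4 line, 88 in the Sox2 line and 71 in the Nanog line, where the shares among the 9735 genes were 49.6%, 49.5% and 45.5%. This held in all 3 lines for 67 genes, against 26.1% of the 9735. The reverse, Dox below ESCs, was seen for 6, 7 and 21 genes (40.3%, 39.3% and 39.5% of the 9735) and in all 3 lines for the 3 named above (20.0%). Ripk1, a kinase of cell death and inflammatory signalling, was the third of them. Both ESC libraries lay above both untreated L-EPSC libraries for 46, 59 and 49 genes (40.4%, 37.2% and 39.7%) and in all 3 lines for 29 genes (22.8%), among them Esrp2, Krcc1, Smim10l1, Acp2, mt-Cytb, Timm21, Myd88 and Pkd2. Both lay below for 40, 20 and 32 genes (48.0%, 46.3% and 46.9%) and in all 3 lines for 10 (29.1%), namely Ptgr1, Tgfbi, Dsc2, Rnf103, Nat2, Gata2, Slc43a3, Tspan18, Lcp1 and Lpl.

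Genes of 18 lists, written with earlier results of these data known, were set beside the 100 with the 100 themselves left out, since those were chosen for being higher. A gene was called at a Benjamini-Hochberg adjusted p under 0.05 over all 24007 genes tested (limma) and a log2 fold change beyond 0.6. L-EPSCs with Dox were compared with those without in each line. Over all genes, 13.0% were called higher and 14.9% lower in the Oct4 line, 12.2% higher (2921 genes) and fewer lower (2647 genes) in the Sox2 line, and 5.17% and 4.77% in the Nanog line. With each library centred on its median, the Sox2 line had 2589 genes higher and 2974 lower, so that which direction held more calls there turned with the scaling. Of the 9735 genes meeting the level and chromosome limits, 18.4%, 16.7% and 6.58% were called higher. The median log2 fold change over all genes was 0 in each. The difference between the Dox effects of 2 lines was tested as an interaction term, which called 10.2% of genes higher and 12.3% lower for the Oct4 line minus the Nanog line, and 9.29% and 8.97% for the Sox2 line minus the Nanog line (2230 and 2153 genes, or 1916 and 2498 after median centring). Both differences share the libraries of the Nanog line.

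Of 30 pluripotency genes, 0 were higher and 25 lower with Dox in the Oct4 line (median log2 fold change -1.90), 0 and 26 in the Sox2 line (-1.61), and 7 and 9 in the Nanog line (-0.14). The Dox effect was more negative than in the Nanog line for 27 of the 30 in the Oct4 line and 25 in the Sox2 line, and none was more positive. Trim28, a corepressor of retrotransposons, had 12754 and 12327 normalized counts without and 5925 and 5831 with Dox in the Oct4 line, 14883 and 14475 against 5525 and 5568 in the Sox2 line, and 11565 and 11538 against 13771 and 13435 in the Nanog line, and the log2 fold changes were -1.09, -1.40 and 0.24 (SE 0.02), called in the Oct4 and Sox2 lines. The RNA-binding protein gene Dppa5a fell in all 3 lines, with log2 fold changes of -2.11, -2.45 and -0.69 (SE 0.05 each). None of the 100 is in the pluripotency list.

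Of 20 trophoblast genes outside the 100, 15 were higher and 0 lower in the Oct4 line (median 1.71), 16 and 1 in the Sox2 line (1.73), and 2 and 2 in the Nanog line (-0.13). The Dox effect exceeded that of the Nanog line for 14 of them in the Oct4 line and 13 in the Sox2 line. Krt18, the partner keratin of Krt8, had 1578 and 1549.5 normalized counts without and 11458 and 11447 with Dox in the Oct4 line, 633 and 606 against 4404 and 4436 in the Sox2 line, and 231 and 223 against 339.9 and 293 in the Nanog line. Its log2 fold changes were 2.87, 2.83 and 0.47 (SE 0.06 each), the last not called. Tfap2c, a factor of trophoblast and germ cells, rose in the Oct4 and Sox2 lines (1.45 and 1.01) and had -0.32 in the Nanog line, not called. Peg10, Krt8, Krt19 and Gata2 of the 100 belong to this list. The interferon and antigen presentation list had 21 higher and 3 lower of 27 in the Oct4 line (median 2.28), 19 and 3 in the Sox2 line (1.31) and 1 and 5 in the Nanog line (-0.07), or 2.39, 1.16 and -0.06 with bounds for genes that had no more than 3 reads a library, and its Dox effect exceeded that of the Nanog line for 23 genes in the Oct4 and 17 in the Sox2 line.

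Of the 12 mitochondrially encoded genes besides mt-Cytb, 6 were higher and 0 lower in the Oct4 line, 4 and 0 in the Sox2 line and 4 and 0 in the Nanog line. The medians were 0.83, 0.53 and 0.62, or 0.68, 0.50 and 0.62 with genes at or under 3 reads a library set to their bounds. The Dox effect differed from that of the Nanog line for 1 gene in each direction in the Oct4 line and for 0 in the Sox2 line. mt-Co1, a subunit of complex IV, had 105459 and 100825 normalized counts without and 103718 and 105509 with Dox in the Oct4 line, and its log2 fold changes were 0.02, -0.01 and 0.28 (SE 0.03 each), none called. mt-Nd1, a subunit of complex I, had 0.82, 0.20 and 0.35 (SE 0.04 each) and was called in the Oct4 line only. mt-Nd4, another subunit of complex I, was higher in all 3 lines (1.501, 0.77 and 0.99) and is named after its values were seen. Of the 76 proteins of the mitochondrial ribosome, 14 were higher and 0 lower in the Oct4 line (median 0.20), 0 and 10 in the Sox2 line (-0.22) and 0 and 1 in the Nanog line (-0.10). The 12 mitochondrial chaperones and proteases had 1 call in the Oct4 line and 0 in the others, where Hspa9 had -0.21, -0.31 and 0.22 and Hspd1 0.16, -0.29 and 0.06 (SE 0.03 each, none called).

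Of 36 ATF4 targets outside the 100, 1 was higher and 12 lower in the Oct4 line (median -0.33), 2 and 10 in the Sox2 line (-0.27), and 7 and 0 in the Nanog line (0.29). Taking bounds for genes with no more than 3 reads a library gave medians that were -0.30, -0.27 and 0.29. The Dox effect was below that of the Nanog line for 16 of them in the Oct4 line and 17 in the Sox2 line, and above it for 0 and 1. Aars, the alanyl-tRNA synthetase, had 6300.3 and 6513 normalized counts without and 4597 and 4551 with Dox in the Oct4 line, 6939 and 6823 against 5675 and 5513 in the Sox2 line, and 8789 and 9185 against 12106 and 11736 in the Nanog line, and the log2 fold changes were -0.49, -0.30 and 0.41 (SE 0.03), not called in any line. The amino acid transporter Slc7a5 fell in the Oct4 line (-1.21, SE 0.05) and had -0.56 and -0.43 (SE 0.05 each) in the Sox2 and Nanog lines, not called. The 7 called higher in the Nanog line were Ddit3, Trib3, Chac1, Atf5, Slc7a3, Nupr1 and Stc2, named after their values were seen; Ddit3, Trib3 and Chac1 are known as genes of the integrated stress response. Not all of these calls held when 1 library was left out. Cebpb is in the list of ATF4 targets and among the 100, with a higher level under Dox in each line by the rule.

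The lists below are given in the same way, with 1 or 2 of the most abundant genes of each and their log2 fold changes in the Oct4, Sox2 and Nanog line. Of 43 lysosome genes, 15 were higher and 2 lower in the Oct4 line (median 0.27), 12 and 3 (0.04) in the Sox2 line and 2 and 2 (0.14) in the Nanog line. Psap, the precursor of the saposins, had log2 fold changes of 1.10, 0.81 and -0.13 (SE 0.02), called in the Oct4 and Sox2 lines. Lamp1, a membrane protein of lysosomes, had log2 fold changes of 0.50, 0.32 and 0.45 (SE 0.03), not called in any line. Of 24 imprinted genes outside the 100, 9 were higher and 4 lower in the Oct4 line (median 0.29), 9 and 4 (0.02) in the Sox2 line and 0 and 1 (0.33) in the Nanog line. Slc38a4, an amino acid transporter, had log2 fold changes of 0.35, 0.70 and -0.40 (SE 0.04), called in the Sox2 line. Igf2r, the receptor that clears IGF2, had log2 fold changes of -1.04, -0.50 and 0.54 (SE 0.04), called in the Oct4 line. Taking bounds for genes with no more than 3 reads a library gave medians that were 0.17, 0.07 and 0.05. Of 28 p53 targets, 2 were higher and 10 lower in the Oct4 line (median -0.29), 2 and 11 (-0.32) in the Sox2 line and 1 and 3 (-0.02) in the Nanog line. Ccng1, cyclin G1, had log2 fold changes of -0.23, -0.20 and 0.21 (SE 0.04), not called in any line. Trp53inp1, a p53-induced protein, had log2 fold changes of -0.85, -0.57 and -0.02 (SE 0.05), called in the Oct4 line. Of 19 genes of cholesterol synthesis, 1 was higher and 4 lower in the Oct4 line (median -0.30), 1 and 2 (-0.19) in the Sox2 line and 0 and 7 (-0.55) in the Nanog line. Srebf2, the factor that drives the pathway, had log2 fold changes of -1.41, -0.42 and -0.50 (SE 0.04), called in the Oct4 line. The 10 of the 100 in at least 1 list were Peg10, Krt8, Sgsh, Cebpb, Sgce, Rragd, Krt19, mt-Cytb, Gata2 and Tagln.

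Of 35 mesenchyme and actin genes, 13 were higher and 5 lower in the Oct4 line (median 0.37), 13 and 4 (0.23) in the Sox2 line and 5 and 6 (0) in the Nanog line. Fn1, fibronectin, had log2 fold changes of -2.58, -1.57 and 0.64 (SE 0.03), called in all 3 lines. Of 26 primitive endoderm genes, 3 were higher and 12 lower in the Oct4 line (median -0.49), 5 and 8 (-0.32) in the Sox2 line and 3 and 5 (-0.18) in the Nanog line. Lamc1, a laminin chain, had log2 fold changes of -1.48, -0.28 and 0.02 (SE 0.02), called in the Oct4 line. Col4a1, a basement membrane collagen, had log2 fold changes of -1.20, -1.43 and -1.20 (SE 0.06), called in all 3 lines. Of 27 ERK and immediate-early genes, 8 were higher and 10 lower in the Oct4 line (median 0.23), 10 and 11 (-0.15) in the Sox2 line and 2 and 4 (-0.21) in the Nanog line. Jund, an AP-1 subunit, had log2 fold changes of 1.48, 1.61 and 0.22 (SE 0.06), called in the Oct4 and Sox2 lines. Klf6, a zinc finger factor, had log2 fold changes of 1.84, 1.60 and 0.61 (SE 0.06), called in all 3 lines. Of 28 genes of glycolysis and hypoxia, 5 were higher and 13 lower in the Oct4 line (median -0.49), 3 and 7 (-0.07) in the Sox2 line and 0 and 8 (-0.43) in the Nanog line. Gapdh had log2 fold changes of -0.69, -0.42 and -0.46 (SE 0.02), called in the Oct4 line. Pkm, pyruvate kinase, had log2 fold changes of -0.98, -0.66 and -0.54 (SE 0.02), called in the Oct4 and Sox2 lines.

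Of 22 genes of oxidative and metal stress, 6 were higher and 3 lower in the Oct4 line (median 0.13), 8 and 2 (0.35) in the Sox2 line and 0 and 5 (-0.09) in the Nanog line. Ftl1, the ferritin light chain, had log2 fold changes of 0.35, 0.31 and 0.18 (SE 0.03), not called in any line. Tfrc, the transferrin receptor, had log2 fold changes of 0.55, 0.44 and -1.31 (SE 0.03), called in the Nanog line. Of 18 fibroblast genes, 4 were higher and 6 lower in the Oct4 line (median 0.05), 2 and 3 (0) in the Sox2 line and 2 and 2 (0.06) in the Nanog line. Col5a1, a collagen, had log2 fold changes of -1.06, -0.46 and -0.50 (SE 0.13), called in the Oct4 line. Pdgfrb, a PDGF receptor, had log2 fold changes of -1.50, -0.11 and -0.75 (SE 0.15), called in the Oct4 and Nanog lines. Of 16 cell cycle inhibitors, 2 were higher and 1 lower in the Oct4 line (median -0.31), 2 and 1 (0.08) in the Sox2 line and 1 and 2 (-0.01) in the Nanog line. Cdkn1c, an imprinted inhibitor, had log2 fold changes of 3.71, 3.13 and 0.51 (SE 0.07), called in the Oct4 and Sox2 lines. Cdkn1a, p21, had log2 fold changes of 0.23, 0.48 and -0.64 (SE 0.06), called in the Nanog line. In the mitochondrial ribosome list, Mrps5 had log2 fold changes of -0.17, -0.60 and -0.14 (SE 0.04), called in the Sox2 line. There Mrpl15 had log2 fold changes of -0.24, -0.61 and -0.20 (SE 0.05), called in the Sox2 line. In the interferon list, Ifitm2, a membrane protein, had log2 fold changes of -1.89, -1.76 and -1.08 (SE 0.05), called in all 3 lines. There Stat2, a signal transducer, had log2 fold changes of 0, 0.17 and -0.41 (SE 0.06), not called in any line.

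**Figure D3:**
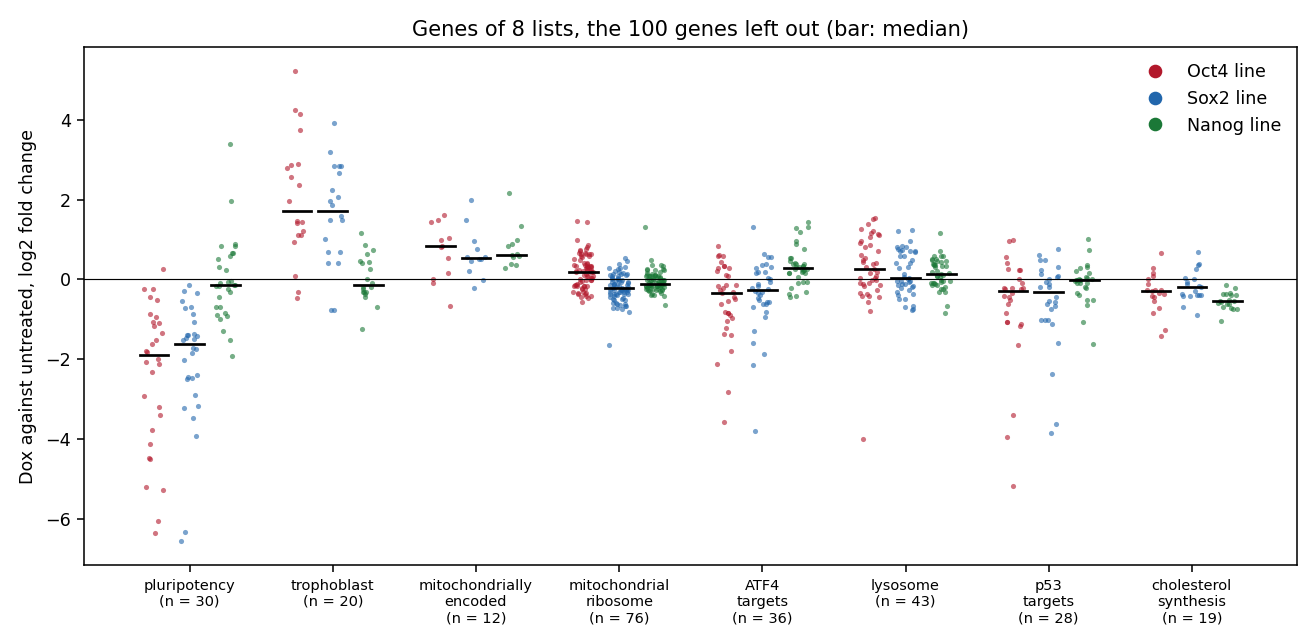
Log2 fold change of Dox-treated against no Dox in L-EPSCs (y axis) for each gene of 8 lists (x axis, with the number of genes), red for the Oct4, blue for the Sox2 and green for the Nanog line, with a bar at the median; the 100 genes are left out. Pluripotency genes lie mostly below 0 and trophoblast genes above 0 in red and blue but around 0 in green, and mitochondrially encoded genes lie mostly above 0 in all 3 colours.

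The J1 libraries did not enter the rule, so the 100 genes were tested there. They hold no Dox and no tet-off transgene, and the comparison asks how these genes differ between the pluripotent states. Some readouts went against the media on the labels. Spry4, which MEK inhibition lowers, had 97.9 normalized counts in the libraries labelled ESC, 2902 in those labelled L-EPSC and 1731 in those labelled D-EPSC, although the L-EPSC medium holds the MEK inhibitor PD0325901. In the tet-off lines the means of Spry4 ran from 24.5 to 33.7 in untreated L-EPSCs and from 930.4 to 3034 in ESCs. Axin2, a Wnt target, had 736 in J1 ESCs, 711 in J1 L-EPSCs and 98.7 in J1 D-EPSCs, although only the L-EPSC medium holds the Wnt pathway inhibitor XAV939. The J1 groups are therefore named as the labels name them, and directions below hold for the libraries so labelled.

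Markers of fibroblasts also differed between the J1 groups, although both kinds of EPSC had been taken off fibroblast feeders, and the source of this RNA was not tested. Of 11 fibroblast markers, 10 are in the tables, and their summed level was 90929 to 93261 in J1 ESCs, 19179 to 19828 in J1 L-EPSCs and 56607 to 56776 in J1 D-EPSCs, with none of the 10 at 0. In the tet-off table the sum was 246 to 923, and 2 to 4 of the 10 were at 0 in each group. Col1a1, a fibroblast collagen, had means of 45291, 7499 and 19836 in J1 ESCs, L-EPSCs and D-EPSCs. Tyrobp, a marker of macrophages and other myeloid cells, had means of 106, 281 and 389. Trophoblast markers summed to 871 to 899 in J1 ESCs, 673 to 696 in J1 L-EPSCs and 133 to 142 in J1 D-EPSCs, in which 10 of the 11 are listed. The part of these differences in the results on the 100 genes was not tested.

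All 100 genes were tested among 21533. Against ESCs, 9 were called higher and 26 lower in L-EPSCs, where 8.80% and 11.5% of all genes tested, and 8.52% and 11.01% of the 9735 genes meeting the level and chromosome limits, were called. The median log2 fold change of the 100 was -0.21, with 37 above and 63 below 0. In D-EPSCs 27 were higher and 16 lower than in ESCs (background 10.8% and 9.98%, or 9.02% and 10.6% of the 9735), with a median of 0.21 and 68 above 0. In L-EPSCs 7 were higher and 32 lower than in D-EPSCs (4.80% and 8.58%, or 4.77% and 6.64%), with a median of -0.46 and 75 below 0. The medians over all genes tested were 0, 0.01 and 0. The number called in D-EPSCs against ESCs was 43 with all libraries, 27 without ESC replicate 1 and 28 without D-EPSC replicate 2, and that in L-EPSCs against D-EPSCs was 39 with all, 19 without D-EPSC replicate 1 and 20 without D-EPSC replicate 2. The larger number of higher than lower calls in D-EPSCs against ESCs rested on both D-EPSC libraries, with 14 higher and 16 lower without replicate 1 and 14 of each without replicate 2. The 3 comparisons share libraries with each other. Gab2, Vdr, Prss8, Acp2, mt-Cytb, Slc25a24 and Hebp2 were among the genes called in no comparison. D-EPSC medium holds minocycline, as a tetracycline the only relative of Dox in the J1 cultures, but it differs from the other media in more ways, and the parts of its components cannot be told apart.

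**Figure D4:**
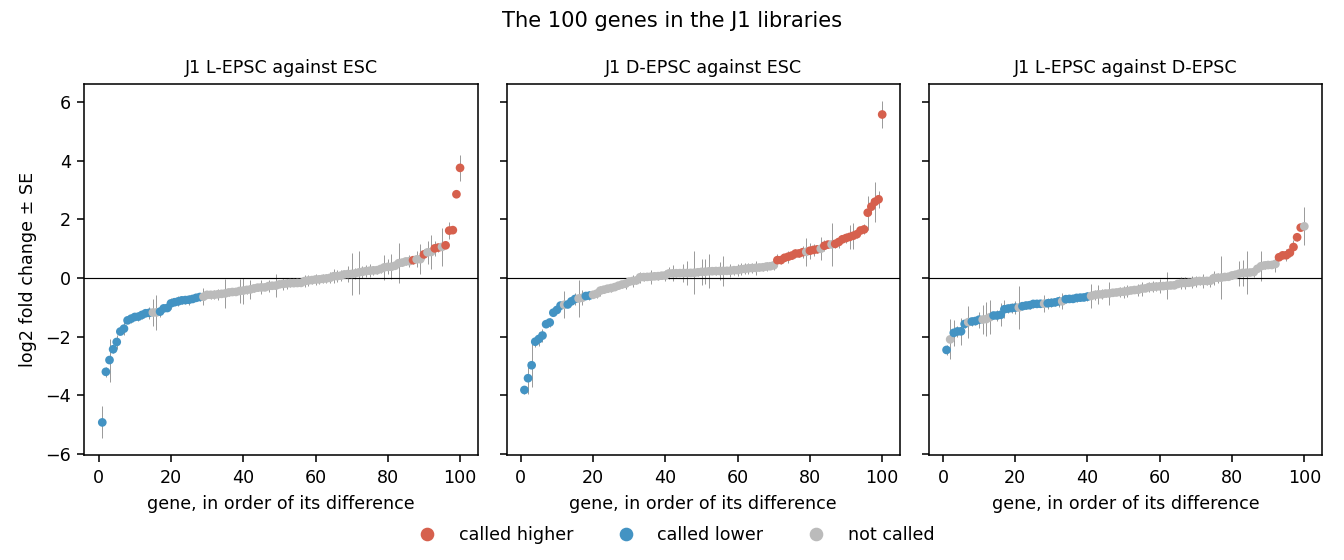
Log2 fold change with its standard error (y axis) of each of the 100 genes in J1 L-EPSCs against ESCs, D-EPSCs against ESCs and L-EPSCs against D-EPSCs, the genes in order of the value (x axis), with red for called higher, blue for called lower and grey for not called (2 libraries a group). Blue points outnumber red ones in the first and the third panel (26 to 9 and 32 to 7), and red ones outnumber blue ones in the second (27 to 16), but not without D-EPSC replicate 1 (14 to 16) or 2 (14 to 14).

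The genes lowest in J1 L-EPSCs against ESCs were Slc16a9, Eya1, Gata2, Krt8 and Esrp2, and the same 5 were the lowest in D-EPSCs against ESCs. Slc16a9 had 203 and 187 normalized counts in ESCs, 3.08 and 9.19 in L-EPSCs and 27.6 and 10.8 in D-EPSCs. Its log2 fold change was -4.92 (SE 0.55, adjusted p = 0.00023) in L-EPSCs and -3.42 (SE 0.55, adjusted p = 0.0017) in D-EPSCs. Eya1 had 269.6 and 286 normalized counts in ESCs, 28.8 and 29.9 in L-EPSCs and 57.2 and 64.6 in D-EPSCs. Both groups of EPSCs lay under the ESCs with no overlap, at -3.20 (SE 0.17, adjusted p = 3.8e-06) and -2.17 (SE 0.17, adjusted p = 3.3e-05). Gata2 had 56.6 and 53.5 normalized counts in ESCs, 6.17 and 8.04 in L-EPSCs and 2.04 and 15.7 in D-EPSCs. At these low counts its differences were -2.80 (SE 0.73, adjusted p = 0.018) and -2.98 (SE 0.73, adjusted p = 0.014), and the first was lost when any 1 library of its 2 groups was left out. Krt8 had 594 and 575 normalized counts in ESCs, 98.7 and 117 in L-EPSCs and 41.9 and 39.2 in D-EPSCs. It was lowest in D-EPSCs, at -3.82 (SE 0.14, adjusted p = 5.1e-07) against ESCs, where L-EPSCs had -2.43 (SE 0.14, adjusted p = 5.3e-06). Esrp2 had 286 and 289 normalized counts in ESCs, 60.7 and 64.4 in L-EPSCs and 86.8 and 51.9 in D-EPSCs, at -2.18 (SE 0.23, adjusted p = 0.00018) and -2.08 (SE 0.23, adjusted p = 0.00024). Emp2 had 171 and 179 normalized counts in ESCs, 67.9 and 71.3 in L-EPSCs and 65.4 and 55.8 in D-EPSCs and was called lower in both. Of the 10 epithelial genes, 3 were lower and 0 higher in L-EPSCs than in ESCs, and 5 lower and 2 higher in D-EPSCs. Over all genes tested the shares were 11.5% lower and 8.80% higher in L-EPSCs, and 9.98% lower and 10.8% higher in D-EPSCs. With 10 genes grouped after their values were seen, these counts are a description.

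Of the genes highest in J1 L-EPSCs against ESCs, Car4 had 0 and 0 normalized counts in ESCs, 12.3 and 12.6 in L-EPSCs and 54.1 and 40.1 in D-EPSCs. Set against a floor of 3 reads in each ESC library, it was at least 4.57-fold higher in L-EPSCs and at least 17.3-fold higher in D-EPSCs. Peg10 had 557 and 588 normalized counts in ESCs, 4241 and 4055 in L-EPSCs and 1258 and 1264 in D-EPSCs. It rose in both EPSC states, by 2.85 (SE 0.04, adjusted p = 1.3e-08) in L-EPSCs and 1.14 (SE 0.04, adjusted p = 8.0e-07) in D-EPSCs, and L-EPSCs exceeded D-EPSCs by 1.72 (SE 0.04, adjusted p = 4.0e-07). Adgrl2 had 242 and 217 normalized counts in ESCs, 734 and 688 in L-EPSCs and 517 and 634 in D-EPSCs, at 1.63 (SE 0.11, adjusted p = 1.3e-05) and 1.32 (SE 0.11, adjusted p = 4.3e-05). Aff3, of the super elongation complex family, had 15.3 and 24.0 normalized counts in ESCs, 73.0 and 50.6 in L-EPSCs and 144 and 115 in D-EPSCs. Its differences were 1.62 (SE 0.30, adjusted p = 0.0035) and 2.68 (SE 0.30, adjusted p = 0.00024). Lcp1 had 158 and 188 normalized counts in ESCs, 365 and 384 in L-EPSCs and 532 and 532 in D-EPSCs, at 1.11 (SE 0.10, adjusted p = 6.3e-05) and 1.62 (SE 0.10, adjusted p = 8.2e-06). Lcp1 is also a gene of leukocytes, and Tyrobp was in the same order of groups. Aff3 and CN725425 had that order too, and the source of the Lcp1 RNA was not tested. CN725425 had 13.5 and 17.5 normalized counts in ESCs, 32.9 and 31.0 in L-EPSCs and 83.7 and 91.0 in D-EPSCs, at 2.43 (SE 0.27, adjusted p = 0.00022) in D-EPSCs.

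Gnao1 and Marveld3 were further genes highest in D-EPSCs against ESCs. Gnao1 had 6.29 and 4.61 normalized counts in ESCs, 17.5 and 3.45 in L-EPSCs and 29.6 and 48.0 in D-EPSCs, with a difference of 2.60 (SE 0.68, adjusted p = 0.018). Marveld3 had 0 and 0.922 normalized counts in ESCs, 2.06 and 1.15 in L-EPSCs and 6.13 and 4.89 in D-EPSCs, so that D-EPSCs were at least 2.02-fold above a floor of 3 reads in each ESC library. That call rested on 1 read in ESCs and 11 in D-EPSCs and was not made by edgeR or DESeq2 (adjusted p = 0.083 and 0.17). Atp2c2 and Sez6 were likewise at or under 3 reads in each library of 1 state, and neither was called.

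Between the EPSC states, Tgfbi had 151 and 201 normalized counts in ESCs, 87.4 and 114 in L-EPSCs and 567 and 536 in D-EPSCs. It was lowest in L-EPSCs and highest in D-EPSCs, the 2 differing by -2.45 (SE 0.17, adjusted p = 3.5e-05). Shtn1 had 36.8 and 54.4 normalized counts in ESCs, 19.5 and 55.2 in L-EPSCs and 134 and 114 in D-EPSCs. One L-EPSC library was close to the ESCs and the other below, and the difference from D-EPSCs was -1.87 (SE 0.45, adjusted p = 0.015). Dtx4 had 63.8 and 83.9 normalized counts in ESCs, 38.0 and 41.4 in L-EPSCs and 149 and 137 in D-EPSCs, at -1.82 (SE 0.20, adjusted p = 0.00035). Igsf10 had 262 and 279 normalized counts in ESCs, 198 and 209 in L-EPSCs and 532 and 691 in D-EPSCs, at -1.57 (SE 0.12, adjusted p = 6.8e-05), and Car4 had -1.82 (SE 0.45, adjusted p = 0.018). Tgfbi and Dtx4 were 2 of the 14 genes lower in L-EPSCs than in both other groups, which 3.59% of all genes tested and 2.59% of the 9735 were, with Wls, Sgsh, Pkd2, Eya1, Myd88 and Lpl among the rest. Both were also among the 15 higher in D-EPSCs than in both others (3.88% and 2.82%), with Cebpa, Cebpb, Csf2ra, Sgce and Rtl6 among the rest. Cebpa had 58.4 and 59.0 normalized counts in ESCs, 59.6 and 80.4 in L-EPSCs and 124 and 130.2 in D-EPSCs, and Cebpb had 146 and 148 normalized counts in ESCs, 129 and 132 in L-EPSCs and 253 and 249 in D-EPSCs. For each of them ESCs and L-EPSCs were close and D-EPSCs higher, at 1.10 (SE 0.19, adjusted p = 0.0028) and 0.76 (SE 0.10, adjusted p = 0.00073) against ESCs. The 3 imprinted or retrotransposon-derived genes were all called higher in D-EPSCs than in ESCs. Of all genes tested 10.8% were, and of the 9735 genes 9.02%. The 3 were grouped by role after their values were seen.

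The genes highest in L-EPSCs against D-EPSCs, besides Peg10, were Krt8, Krt19, Ulbp1 and Tmem102. Krt19 had 45.8 and 59.0 normalized counts in ESCs, 62.7 and 73.6 in L-EPSCs and 28.6 and 36.2 in D-EPSCs, with 1.05 (SE 0.25, adjusted p = 0.015). Ulbp1 had 119.5 and 114 normalized counts in ESCs, 137 and 144 in L-EPSCs and 84.8 and 69.5 in D-EPSCs, with 0.86 (SE 0.15, adjusted p = 0.0042). Tmem102 had 136 and 162 normalized counts in ESCs, 57.6 and 72.4 in L-EPSCs and 34.7 and 40.1 in D-EPSCs, with 0.77 (SE 0.21, adjusted p = 0.025). The ESC level was close to or below that of L-EPSCs for Krt19 and Ulbp1 and above it for Tmem102. Krt8 differed by 1.39 (SE 0.14, adjusted p = 0.00019). Some calls were lost when 1 library was left out, with the highest adjusted p of limma then reached in parentheses. They were those of Slc16a9 (0.050), Gata2 (0.22) and Aff3 (0.083) in L-EPSCs against ESCs; of Slc16a9 (0.10), Gata2 (0.21), Gnao1 (0.24) and Marveld3 (0.092) in D-EPSCs against ESCs; of Shtn1 (0.24), Car4 (0.060), Krt19 (0.12), Ulbp1 (0.062) and Tmem102 (0.16) in L-EPSCs against D-EPSCs. Of the mitochondrial genes, mt-Cytb had 42489.8 and 41239 normalized counts in ESCs, 54206 and 57528 in L-EPSCs and 48335 and 49909 in D-EPSCs, and its differences of 0.42, 0.23 and 0.19 (SE 0.03 each) stayed under the limit of 0.6. For Tagln, 1089 and 1056 normalized counts in ESCs, 407 and 379 in L-EPSCs and 498 and 508 in D-EPSCs, the order of the groups was that of the fibroblast markers in ESCs, D-EPSCs and L-EPSCs. In the Dox comparison by line Tagln had 2.46-, 4.598- and 1.81-fold higher levels, where fibroblast markers summed to at most 697. Those sums were lower with Dox than without in each line. The part of fibroblast RNA in the values of Tagln was not tested in either set of libraries.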

How the data were processed

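Poly(A) RNA from 24 libraries of mouse ESCs and EPSCs had been sequenced as paired reads. By the study's methods and the submitters' processing notes, reads were trimmed (Trim Galore 0.6.4), aligned to NCBIM37 (STAR 2.7.9a) and counted per gene (HTSeq 0.11.2), and DESeq2 (listed as 4.1.1) was run; whether counting used strand is not given in the sources used here. The normalized signal values that the authors deposited, in 2 tables scaled separately, are read counts divided by a size factor for each library. Within 0.01 of a whole number, 99.9957% to 100% of the values in a library came out as whole reads, and 0 columns were without a sample.

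The values were tested as log2(value + 1) with limma 3.58.1 (R 4.3.3) on all groups of a table, over genes with at least 2 reads in all, with Benjamini-Hochberg adjustment. A call needed both an adjusted p below 0.05 and a log2 fold change of over 0.6 in size. On the recovered reads, edgeR 4.0.16 called 6420 genes with Dox in the Oct4 line, 5445 in the Sox2 line and 2469 in the Nanog line, where limma called 6699, 5568 and 2386. The limma fit was also tried on simulated counts, with the same spread setting for all genes and changes only in genes of higher level. That trial does not cover genes with few reads. With 2 libraries a group, an exact permutation test cannot go below 0.333. Other tools, scalings, filters, pseudocounts, thresholds, sample choices and left-out libraries were tried, and the second background of the J1 counts was chosen after seeing the data.

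The genes and lists were chosen with earlier results of these data known, and roles were assigned to order the text. The text names the 20 genes highest in rank, the 10 with the highest mean Dox level, the 5 with the smallest and the 5 with the largest spread of d, the 5 called genes with the largest change each way in each J1 comparison, those in a list, the 3 on either side of the rank limit, and the 2 most abundant other genes of a list, some of which are not reported here; genes named beyond this rule were chosen after their values were seen. Replicate numbers did not pair the samples.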

Additional observations from a re-analysis of the deposited data

Results flagged for a closer look

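The Dox effects of some named list genes differed between lines by the interaction term (limma, adjusted over all genes tested), given here as log2 differences from the effect in the Nanog line. Among the pluripotency genes, Trim28 differed by -1.33 in the Oct4 line and -1.64 in the Sox2 line, and Dppa5a by -1.42 and -1.76. Among the trophoblast genes, Krt18 differed by 2.40 and 2.36 and Tfap2c by 1.78 and 1.33. Of the ATF4 targets, Aars differed by -0.89 in the Oct4 line and -0.71 in the Sox2 line, and Slc7a5 by -0.79 in the Oct4 line. Ifitm2, an interferon-induced membrane protein, differed by -0.81 and -0.67. Groups of 2 libraries were too small to look for single libraries that stand apart.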

How the results depend on the processing

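No named gene that was called changed sign under the alternatives run, but the uncalled values of mt-Co1 (Oct4 and Sox2 lines) and Stat2 (Oct4 line), all near 0, did. Which direction held more calls turned in some counts. In J1 D-EPSCs against ESCs it went from 27 higher and 16 lower to 14 and 16 without D-EPSC replicate 1, and to 14 and 14 without replicate 2. Dox in the Sox2 line went from 2921 and 2647 to 2589 and 2974 with median centring, and Dox in the Nanog line from 1240 and 1146 to 445 and 553 with its groups alone and 1033 and 1037 without untreated replicate 1. The Sox2 line minus the Nanog line went from 2230 and 2153 to 1916 and 2498 with median centring, 2198 and 2289 with edgeR, 2140 and 2141 with DESeq2 and 1337 and 1377 with a log2 threshold of 1. Among the lists it turned for fibroblast genes in the Sox2 line (2 and 3, or 4 and 3 with edgeR, DESeq2 or a mean of at least 10), imprinted genes in the Nanog line (0 and 1, or 2 and 1 without Dox replicate 2) and cell cycle inhibitors in the Oct4 line (2 and 1, or 2 and 3 with median centring). Leaving out 1 library, with the lone library of a group assumed to vary like the other groups, gave 27 to 33 of the 100 genes called in J1 L-EPSCs against ESCs (35 with all libraries), 27 to 30 in D-EPSCs against ESCs (43) and 19 to 30 in L-EPSCs against D-EPSCs (39). The count in D-EPSCs against ESCs was 27 without ESC replicate 1 and 28 without D-EPSC replicate 2, and that in L-EPSCs against D-EPSCs was 19 without D-EPSC replicate 1 and 20 without D-EPSC replicate 2. With a log2 threshold of 1, the last 2 comparisons had 26 and 18 called, Dox in the Sox2 line 3628 genes and in the Nanog line 1293, and the differences from the Nanog line 3545 (Oct4) and 2714 (Sox2). Dox in the Nanog line called 998 genes with its groups compared alone. Among the genes named as highest or lowest in a J1 comparison, calls lost with a left-out library or with groups alone were those of Gata2, Slc16a9, Aff3, Gnao1, Marveld3, Shtn1, Car4, Krt19, Ulbp1 and Tmem102. With Dox in the Nanog line, calls of ATF4 targets and of mitochondrially encoded genes were also lost when a library was left out. The rule kept 57 of the 100 genes with a lower limit on the Dox mean (at least 20), 49 with a higher one, and 83 to 98 without 1 library, the lowest being without an untreated library of the Nanog line. The causes were not tested. Same-numbered replicates did not deviate together (correlations -0.0164 to 6.5e-05), and with the replicate block 35, 42 and 40 of the 100 genes were called in the 3 J1 comparisons. Depth limits genes with few reads, such as Car4 and Marveld3 in J1 ESCs.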
